A study of Mus musculus with 6 samples.

Results

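The genes described here encode the structural proteins of tooth enamel and the 2 proteases that process them: Amelx (amelogenin), Ambn (ameloblastin), Enam (enamelin), Amtn (amelotin), Odam (odontogenic ameloblast-associated protein), Odaph (odontogenesis-associated phosphoprotein), Mmp20 (enamelysin) and Klk4 (kallikrein-related peptidase). They were chosen by name, with the large difference of Amelx and Ambn between mandibular- and femur-derived monocytes already known, and all 8 were found among the 57010 genes of the count table. The contrast between the 2 skeletal sites is therefore given for them as a description, without a test. RNA was sequenced in 6 libraries of monocytes from the bone marrow of C57BL/6 mice (C57BL/6J in the study's methods) that were 1 year old, 3 of femur-derived cells (S13, S15, S18) and 3 of mandibular-derived cells (S16, S19, S23). The marrow was flushed from dissected bones and other cells were held back on a magnetic column, so that the cells that ran through were kept as monocytes without being picked by a monocyte marker. Male and female mice were used, and the labels do not say from which animal or sex each library came, and nothing in them states that the libraries of a group came from separate animals, so the spread between libraries may be technical in part.

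Enamel is made by ameloblasts, epithelial cells of the developing tooth. In the secretory stage they release amelogenin, ameloblastin and enamelin, which MMP20 cleaves as the enamel layer thickens. In the maturation stage KLK4 degrades the remaining matrix so that the mineral can harden, and AMTN and ODAM are laid down at the surface between the cells and the enamel. Mouse incisors grow throughout life and their roots run inside the mandible, so both stages are present side by side in the adult jaw. The genes are named below by stage, with Amelx, Ambn, Enam and Mmp20 as secretory stage genes and Amtn, Odam, Klk4 and Odaph as maturation stage genes.

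Amelx lies on the minus strand of chromosome X from 169176114 to 169187200 (GRCm38, GENCODE M21), inside the much longer gene Arhgap6 on the plus strand. The other 7 genes are on the plus strand. On chromosome 5, Odam runs from 87885029 to 87894174, Amtn from 88376108 to 88385916, Ambn from 88455991 to 88468531, Enam from 88487975 to 88506049 and Odaph from 91987475 to 91995320. Amtn and Ambn are 70075 bases apart, and Ambn and Enam 19444 bases. Mmp20 lies on chromosome 9 from 7628231 to 7674979, between other matrix metalloproteinase genes, and Klk4 on chromosome 7 from 43881160 to 43885804, among the kallikreins.

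Amelx, Ambn, Enam, Amtn and Odam belong to the secretory calcium-binding phosphoproteins (SCPPs), a family that also holds the caseins and the phosphoproteins of bone and dentin. Their promoters are shown because they share a short run of letters near the start. Each is the 150 bases before the RefSeq start of the gene (GRCm38.p6), 5′ to 3′ on the strand of the gene, with every CCAAT, read on either strand and so also as ATTGG, in capitals. They lie at chrX:169187210-169187359 (minus strand), chr5:88455841-88455990, chr5:88487825-88487974, chr5:88375958-88376107 and chr5:87884860-87885009 (plus strand).
Amelx: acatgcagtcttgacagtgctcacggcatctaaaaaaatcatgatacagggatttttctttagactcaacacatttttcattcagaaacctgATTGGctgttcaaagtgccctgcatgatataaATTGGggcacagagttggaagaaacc
Ambn: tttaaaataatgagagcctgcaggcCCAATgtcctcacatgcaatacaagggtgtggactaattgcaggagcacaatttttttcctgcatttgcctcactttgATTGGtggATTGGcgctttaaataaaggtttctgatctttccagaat
Enam: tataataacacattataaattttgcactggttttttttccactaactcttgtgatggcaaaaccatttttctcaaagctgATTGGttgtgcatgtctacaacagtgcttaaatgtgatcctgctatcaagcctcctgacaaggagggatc
Amtn: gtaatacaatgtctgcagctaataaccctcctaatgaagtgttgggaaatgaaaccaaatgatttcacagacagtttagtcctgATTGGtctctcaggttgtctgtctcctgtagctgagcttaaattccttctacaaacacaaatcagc
Odam: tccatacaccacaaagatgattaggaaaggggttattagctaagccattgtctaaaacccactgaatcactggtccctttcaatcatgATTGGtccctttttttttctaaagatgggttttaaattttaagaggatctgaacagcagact
In windows of 300 bases (250 before and 50 after the start), CCAAT was found on either strand in these 5 promoters and in none of the promoters of Mmp20, Klk4 and Odaph, and in 37.4% of the 32851 RefSeq promoters. All 5 genes had a match whose first base lay between positions -100 and -41, where 14.2% of all promoters had one. This window was not part of the plan made beforehand, so the share in it is a description only. Read on the strand of the gene, all 5 held the 7 letters TGATTGG, which start at -60 in Amelx, -49 in Ambn, -72 in Enam, -68 in Amtn and -64 in Odam. These letters were chosen after the sequences were seen, contain the CCAAT match on the other strand, and were found on either strand in 7.82% of all promoters. TATAAA, the letters of the TATA box, was found in Amelx at -31, in Mmp20 at -58 and in Enam at -137, and in 13.6% of all promoters. TGTGGT, the core bound by RUNX factors, was found in Odam and Odaph and in 16.8% of all promoters. No measurement of factor binding was used here, so the matches describe letters only.

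Values below are CPM, the usual scaling of counts to a common library total, with the TMM factors of edgeR. The libraries held 15718782 to 25371474 counts on genes. A count of 0 allows up to 3 counts, or 0.133 to 0.172 CPM depending on the library, and this limit and the intervals below cover counting error only. The monocyte markers, 12 genes, summed to 6286 to 11182 CPM in the mandible and 6906 to 13913 CPM in the femur, and none of them was at 0 in every library of a group. Xist, an RNA made by female cells to silence an X chromosome, reached 1441 CPM in S23, from the mandible, and 0.553 CPM or less in the other 5. S23 was thus the only library with high Xist. Where S23 differs from S16 and S19 below, a difference in sex cannot be told apart from other differences between these libraries. Femur library S15 stood apart, with a count in 40494 genes against 17481 to 23513 in the others. In it, 13454 genes were counted that had no count in any other library, against 77 to 417 such genes in each of the others. Of the 5118 protein-coding genes without a count in the other 5 libraries, 3345 had a count in S15, with a median of 1.25 counts per kb of exonic length and a 75th percentile of 3.75. The fold changes of the enamel genes, and those printed for other genes whose femur counts came mainly from S15, are therefore also given without it.

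The secretory stage genes were among the most abundant RNAs of the mandible libraries. Amelx, the main protein of forming enamel, was 3039 CPM in S16, 3649 CPM in S19 and 6469 CPM in S23, and 0.110, 0.230 and 0.309 CPM in S13, S15 and S18. It was 9th of all 57010 genes by mean CPM in the mandible, and the femur values stand for 2, 5 and 7 counts. Ambn, whose protein attaches ameloblasts to the enamel, was 1691, 2749.7 and 3397 CPM in S16, S19 and S23, and 0.0552, 0.461 and 0.0884 CPM in S13, S15 and S18. Enam, the largest of the matrix proteins, was 950.4, 826 and 1306 CPM in S16, S19 and S23, and had 1, 18 and 0 counts in S13, S15 and S18. These 3 genes were high in all 3 mandible libraries and close to 0 in all 3 femur libraries. Mmp20 was far less abundant, at 60.1, 68.6 and 122 CPM in S16, S19 and S23, with 19 counts in S15 and none in S13 and S18. Mean expression in mandibular-derived monocytes was 4386 ± 1830.1 CPM for Amelx, 2612 ± 861 CPM for Ambn, 1028 ± 249 CPM for Enam and 83.7 ± 33.8 CPM for Mmp20 (SD, n = 3).

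**Figure D1:**
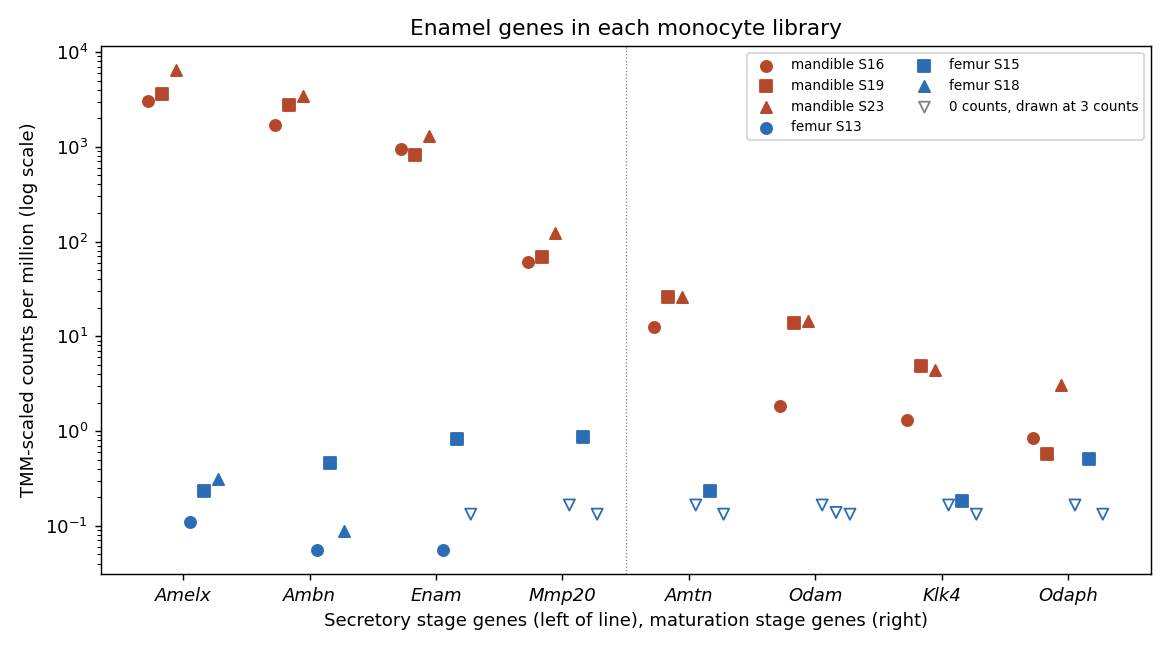
TMM-scaled CPM (log axis) of the 8 enamel genes in each mandible (red) and femur (blue) library, with open triangles for libraries without a count, drawn at the level of 3 counts. All mandible values lie above all femur values, by 4 orders of magnitude for Amelx and by little for Odaph, where mandible S19 was 0.570 CPM and femur S15 0.507 CPM.

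The maturation stage genes were present at much lower levels. Amtn, a protein of the basal lamina of maturation stage ameloblasts, was 12.6, 26.1 and 26.02 CPM in S16, S19 and S23, with 5 counts in S15 and none in S13 and S18. Odam, which is made by the same cells and by the gum epithelium that seals the tooth, was 1.85, 13.9 and 14.6 CPM, with no count in any femur library. Odam was the member with the widest gap between mandible libraries, with S23 at 7.91 times S16. Klk4 was 1.30, 4.84 and 4.46 CPM in S16, S19 and S23, with 4 counts in S15 and none in S13 and S18. Odaph, a gene named for its role in tooth formation, was 0.851, 0.570 and 3.03 CPM in S16, S19 and S23, or 17, 12 and 53 counts. It had 11 counts in S15 and none in S13 and S18. Mean expression in the mandible was 21.5 ± 7.79 CPM for Amtn, 10.1 ± 7.17 CPM for Odam, 3.53 ± 1.94 CPM for Klk4 and 1.48 ± 1.35 CPM for Odaph (SD, n = 3). S16 was the lowest mandible library for Amtn, Odam and Klk4, while S19 was the lowest for Odaph.

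All 8 genes passed the filter on low counts, which their mandible counts alone decided, and in all 8 the mandible libraries lay above the femur libraries, which was so in 12.7% of the 18114 tested genes. Since the genes were chosen from this contrast, nothing is read from this count. The fitted log2 fold change was 14.23 for Amelx, 13.58 for Ambn, 11.71 for Enam, 10.67 for Odam, 8.09 for Mmp20, 7.98 for Amtn, 5.69 for Klk4 and 3.08 for Odaph. Without S15 it was 14.21 for Amelx, 14.96 for Ambn, 14.98 for Enam, 13.68 for Mmp20, 11.72 for Amtn, 9.12 for Klk4 and 7.87 for Odaph. S15 thus set most of the femur level of Ambn, Enam, Mmp20, Amtn, Klk4 and Odaph, and none of that of Odam. Against 3 counts in each femur library, Odam was at least 69.6-fold higher in the mandible. Without S15 the same bound was 561-fold for Mmp20, 145-fold for Amtn, 23.7-fold for Klk4 and 9.95-fold for Odaph.

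The counts of S15 did not have the proportions of the mandible libraries. Amelx made up 49.7 to 57.0% of the counts of the 8 genes in the mandible libraries and 6.94% (5 of 72 counts, exact 95% binomial interval 2.29 to 15.5%) in S15. The genes with most counts in S15 were Mmp20 with 19, Enam with 18, Odaph with 11 and Ambn with 10, which are also the 4 longest. Per kb of exonic length, the 7 genes with a count in S15 had 3.14 to 5.78 counts, while in mandible library S19 the same genes spanned a far wider range. In S13 and S18, by contrast, the few counts fell on Amelx, Ambn and Enam, the 3 most abundant genes in the mandible, with 4 counts in all in S13 and 9 in S18. What gave rise to the counts in the 3 femur libraries was not tested.

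**Figure D2:**
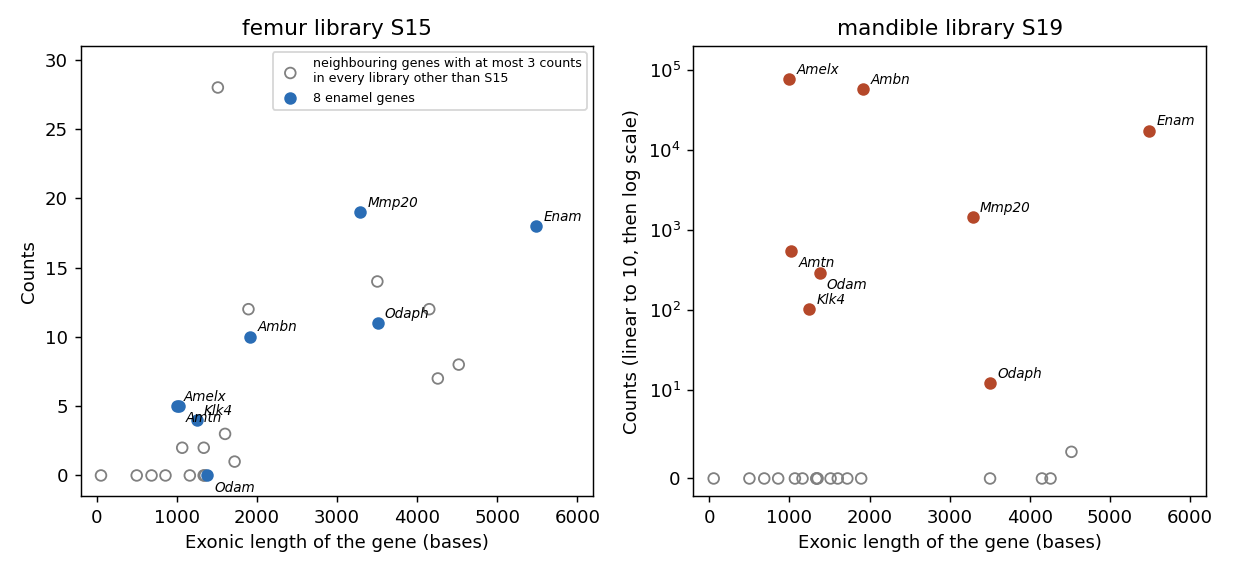
Counts of the 8 enamel genes (filled) and of their neighbouring protein-coding genes with at most 3 counts in every library other than S15 (open) against exonic length, in femur library S15 (left, linear axis) and mandible library S19 (right, linear to 10 and then log). In S15 the enamel genes have 0 to 19 counts, within the range of these neighbours, of which Klk6 has 28. Per kb of exonic length, the 7 enamel genes with a count in S15 have 3.14 to 5.78 counts. These neighbours have a median of 1.496 counts per kb in S15, with a range of 0 to 18.5, so the 7 genes lie above that median. In S19 the enamel genes have 12 to 76857 counts and these neighbours at most 3.

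Genes beside the members were tested. A gene was called when edgeR's quasi-likelihood test gave a p under 0.05 after Benjamini-Hochberg (BH) adjustment over all tested genes and at least a 2-fold difference, which held for 5.18% of all tested genes, and for 8.35% without S15. The 3 nearest protein-coding genes on each side of each member, and the overlapping Arhgap6, gave 37 neighbours that were not members themselves. Of these, 16 were tested, and edgeR called none higher and none lower. No neighbour was higher at an unadjusted p under 0.05 and 1 was lower, and DESeq2 called none higher and 1 lower. The neighbours with the highest fitted values were Parm1 and Cdkl2 beside Odaph, with log2 fold changes of 2.004 and 1.71 (BH-adjusted p of 0.33 and 0.60 in edgeR). Another 17 had at most 3 counts in every library other than S15. Those 17 include the casein genes Csn1s2a, Csn1s2b and Csn3 beside Odam, which encode milk proteins and had no count in any mandible library, and the kallikrein genes Klk5, Klk6 and Klk7 beside Klk4, likewise without a mandible count. Mmp7 and Mmp10, 2 matrix metalloproteinase genes near Mmp20, had no mandible count either, whereas Mmp8, a protease of neutrophils, was 118 CPM in the mandible and 119 CPM in the femur. Jchain, the joining chain of antibodies, lies 13760 bases after Enam, and its log2 fold change was -1.04 (BH-adjusted p = 0.18 in edgeR). Arhgap6 had 94, 115 and 297 counts in S16, S19 and S23 against 60735, 76857 and 113109 for Amelx inside it. Whether the counting used the strand of reads is not given in the sources used here.

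Levels can be compared between genes only per length, and the following values are CPM per kb of exonic length. In the mandible, Amelx was 4390.2 ± 1831.9, Ambn 1361 ± 449, Enam 187 ± 45.4, Mmp20 25.5 ± 10.3, Amtn 21.1 ± 7.62, Odam 7.35 ± 5.21, Klk4 2.83 ± 1.56 and Odaph 0.423 ± 0.384 (SD, n = 3). The order was kept in all 3 mandible libraries for each pair of neighbours in this list except Mmp20 and Amtn. Their log2 ratio was 0.28 ± 0.49 (SD, n = 3), and Amtn was the higher of the pair in S19. Amelx was above Ambn by 1.67 ± 0.28, and Ambn above Enam by 2.83 ± 0.46, on the log2 scale (SD, n = 3). Odam was above Klk4 by 1.11 ± 0.65 on the log2 scale (SD, n = 3), a gap that ranged from 0.37 in the closest library to 1.57. The protease of the secretory stage was thus more abundant than that of the maturation stage, with 17.6, 5.38 and 10.4 Mmp20 counts per Klk4 count after scaling by length in S16, S19 and S23.

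Together, the 8 genes took 0.559% of all counts in S16, 0.755% in S19 and 1.26% in S23, and 4, 72 and 9 counts in S13, S15 and S18. Secretory stage genes made up 99.56 ± 0.17% of these counts in the mandible (SD, n = 3), and 99.06% when Amelx was left out. The share of the maturation stage genes was 0.288% in S16 (exact 95% binomial interval 0.258 to 0.320%), 0.618% in S19 (0.579 to 0.658%) and 0.425% in S23 (0.396 to 0.454%). The intervals do not overlap, so that the summed share of these genes differed between the 3 mandible libraries by more than counting error. In S19, Amtn and Odam held 549 and 292 of the 955 maturation stage counts. Per kb of length the share was 0.361, 0.748 and 0.474% in the same order. The secretory stage genes summed to 5740.3, 7293 and 11295 CPM and the maturation stage genes to 16.6, 45.3 and 48.2 CPM in S16, S19 and S23. S23 had the highest level of secretory stage genes and S19 the highest share of maturation stage genes.

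Relative to Amelx, the members differed in how steady they were. Mmp20 stood at 19.8, 18.8 and 18.9 counts per 1000 Amelx counts in S16, S19 and S23, and the exact 95% binomial intervals of the 3 libraries overlapped (18.7 to 20.9, 17.8 to 19.8 and 18.1 to 19.8). Amelx itself differed 2.13-fold between the lowest and the highest of these libraries. Ambn ranged from 525 per 1000 in S23 to 754 in S19, and Enam from 202 in S23 to 313 in S16, both with intervals that did not overlap. Odam was 0.609 per 1000 in S16 (0.429 to 0.840), 3.80 in S19 (3.38 to 4.26) and 2.26 in S23 (1.99 to 2.56). Klk4 was also highest in S19, with 0.428 in S16, 1.33 in S19 and 0.690 in S23, and the intervals of S16 and S23 overlapped. Amtn was 4.13, 7.14 and 4.02. Odaph was instead lowest in S19, at 0.156 per 1000 (0.0807 to 0.273). It was 0.280 in S16 (0.163 to 0.448) and 0.469 in S23 (0.351 to 0.613), and the S16 interval overlapped those of S19 and S23. With 3 libraries these differences between genes were not tested further.

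**Figure D3:**
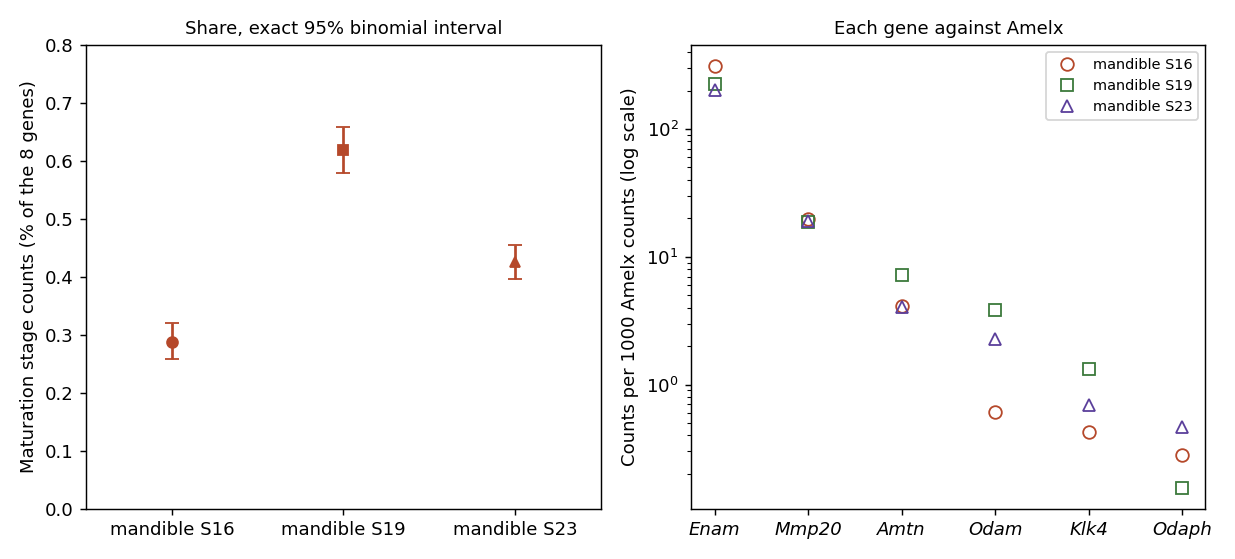
Left, counts of the 4 maturation stage genes as a percentage of the counts of all 8 genes in each mandible library, with exact 95% binomial intervals. Right, counts of 6 of the genes per 1000 Amelx counts (log axis) in the same libraries, where Mmp20 stands at 18.8 to 19.8 in all 3 and Odam runs from 0.609 to 3.80.

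Other genes known for enamel formation were examined from a list of 28 genes, all of them tested. Of these, 13 were called higher in the mandible, against 3.88% of all tested genes, 15 were not called and none was called lower (edgeR's quasi-likelihood test), with a median log2 fold change of 2.94 against -0.038 over all tested genes. At an unadjusted p under 0.05, 18 were higher and 1 was lower, and DESeq2 called 15 higher and none lower. Over all 18114 tested genes, 1662 were higher and 1313 lower at an unadjusted p under 0.05, and DESeq2 called 1091 higher and 457 lower. The enamel phosphatase gene Acp4 rose to 34.2 ± 4.72 CPM (SD, n = 3) and had no count in any femur library, which is at least 235-fold higher than 3 counts per library (BH-adjusted p = 3e-05 in edgeR). Lama3, a laminin chain of epithelial basement membranes, rose from 1.49 ± 1.19 CPM in the femur to 184 ± 70.7 CPM in the mandible (SD, n = 3), or by 6.92 on the log2 scale (standard error 0.67, BH-adjusted p = 0.00018 in edgeR), and by 7.49 without S15. Dlx3, a homeobox factor of tooth and hair, rose by 7.51 on the log2 scale (standard error 0.97, BH-adjusted p = 0.00099 in edgeR), and by 11.70 without S15, which held its only femur counts. Acp4, Lama3 and Dlx3 passed the filter on low counts through their mandible counts alone. Stim1, the calcium sensor of the endoplasmic reticulum used by many cell types, was not called, at 93.6 ± 3.67 CPM in mandible and 85.8 ± 22.5 CPM in femur libraries (SD, n = 3). Without S15, 15 of the 28 were called higher, against 5.11% of all genes tested then, and the median log2 fold change was 4.65 against -0.0054 over all genes. The genes Itgb6, Msx2 and Tbx1 joined and Bcl11b left, all 4 named here after their values were seen.

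Genes of ion transport in the maturation stage were examined next. Of 19 genes 14 were tested, 1 was called higher, against 3.88% of all tested genes, and none lower, 4 were higher and 1 was lower at an unadjusted p under 0.05, and DESeq2 called 2 higher and none lower. The median log2 fold change was 0.45, and 0.91 without S15. The called gene, Slc24a4, a calcium exchanger of maturation stage ameloblasts that is also on the list above, was 8.34 ± 0.930 CPM in the mandible and 0.108 ± 0.186 CPM in the femur (SD, n = 3), or 6.17 on the log2 scale (standard error 1.24, BH-adjusted p = 0.014 in edgeR). It had 167, 156 and 162 counts in S16, S19 and S23 and 7 in S15, its only femur counts, so its mandible counts alone carried it past the filter on low counts. Its log2 fold change was 10.36 without S15, and its call was lost without S19 (BH-adjusted p = 0.077 in edgeR). Atp2b4, Car2 and Atp6v0a2, the most abundant genes of this list, stood at 0.12, -2.33 and 0.036 on the log2 scale, none of them called. Without S15, 3 of the 16 genes tested then were called higher, against 5.11% of all genes tested then, and 1, Car2, was called lower, against 3.24%. The femur level of Car2 was uneven, at 452 CPM in S13, 57.1 CPM in S15 and 87.8 CPM in S18. Without S13 its log2 fold change was -0.87 (BH-adjusted p = 0.35 in edgeR).

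Markers of dental epithelium, the tissue that gives rise to ameloblasts, were tested in 17 of 22 genes. Of these, 2 were called higher, against 3.88% of all tested genes, and none lower, 9 were higher and none lower at an unadjusted p under 0.05, DESeq2 called 7 higher and none lower, and edgeR without S15 called 5 higher, against 5.11%. The median log2 fold change was 2.60, and 4.31 without S15. The called genes were Krt5 and Krt14, the keratin pair of basal epithelial cells. Both passed the filter on low counts through their mandible counts alone. Krt14 had 789, 892 and 819 counts in S16, S19 and S23 and 27 in S15, its only femur counts, and rose by 6.64 on the log2 scale (standard error 1.04, BH-adjusted p = 0.0036 in edgeR), and by 12.72 without S15. Krt5 had 724, 694 and 892 counts in the mandible and 1 count, in S18, in the femur. Of the 17 tested genes 15 had a fitted value above 0. Epcam and Krt18, at -0.48 and -0.022 on the log2 scale, did not, and both are named after their values were seen. The most abundant genes were Krt14, Krt5 and Perp, with mandible means of 42.9, 40.1 and 21.4 CPM, and Perp was not called (BH-adjusted p = 0.057 in edgeR). All 22 genes summed to 158 to 233 CPM in the mandible and 30.3 to 42.7 CPM in the femur, and 11 of them had no count in S13 and S18. Their part in the level of the enamel genes was not tested. In bulk RNA, more cells of a type and more RNA per cell cannot be told apart.

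Junctional epithelium, the gum tissue on the tooth surface, is another source of Odam and Amtn. Of 7 marker genes 6 were in the table and 4 were tested, of which 1 was called higher and 1 lower by edgeR, and DESeq2 gave the same counts. The lower gene was Slpi, a protease inhibitor also made by myeloid cells (log2 fold change -1.18, BH-adjusted p = 0.049 in edgeR). Its call was lost with RLE size factors, without normalization factors and on leaving out any library other than S15, with a BH-adjusted p of 0.052 to 0.26 in edgeR. The median over the 4 was 1.03, and 4.28 without S15. Cxcl17 had no count in any library, and Krt7 had a log2 fold change of -0.80 and was not called. The list summed to 212 to 350 CPM in the mandible and 58.3 to 92.2 CPM in the femur.

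Odontoblasts make the dentin under the enamel and share many genes with bone cells. Of their list of 12 genes 10 were tested, 8 were called higher, against 3.88% of all tested genes, and none lower, 9 were higher and none lower at an unadjusted p under 0.05, DESeq2 called 9 higher, and the median log2 fold change was 4.98. Dspp, which encodes the main phosphoprotein of dentin, had 477, 573 and 101 counts in S16, S19 and S23 and 15 in S15, its only femur counts, and rose by 6.30 on the log2 scale (standard error 1.21, BH-adjusted p = 0.011 in edgeR). It rose by 11.54 without S15, and its call was lost without S19 (BH-adjusted p = 0.091 in edgeR). Its lowest mandible library was S23, where Amelx was highest. Col1a1, Col1a2, Sparc and Bglap, which bone cells express as well, were called higher too. Dspp and Bglap passed the filter on low counts through their mandible counts alone. The 12 genes summed to 8072 to 12243 CPM in the mandible and 116 to 160 CPM in the femur. Most of the mandible sum was Col1a1, Col1a2 and Sparc, with mandible means of 5801, 3155 and 669 CPM, against 18.9 CPM for Dspp.

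The SCPP family was examined beyond the enamel genes. Of 17 other genes listed with the family, 16 were in the table and 5 were tested. All 5 were called higher by edgeR's quasi-likelihood test, against 3.88% of all tested genes. DESeq2 also called all 5 higher, against 1091 of all 18114 tested genes. Their median log2 fold change was 3.33, against -0.038 over all tested genes. Dspp and Sparcl1 passed the filter on low counts through their mandible counts alone. The calls of Dspp and Sparcl1 were lost without S19 (BH-adjusted p of 0.091 and 0.063 in edgeR). The 5 were the bone and dentin phosphoprotein genes Spp1, Ibsp, Dmp1 and Dspp, with log2 fold changes of 2.42, 2.27, 3.33 and 6.30, and Sparcl1 with 4.78 (6.15 without S15), and 3 of them are also on the odontoblast list. Spp1 was 244 ± 83.2 CPM in the mandible and 45.6 ± 14.2 CPM in the femur (SD, n = 3), so that its femur level was well above the limit of 3 counts. The other 11 did not pass the filter on low counts, among them the caseins, and 8 of the 16 had no count in any mandible library.

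**Figure D4:**
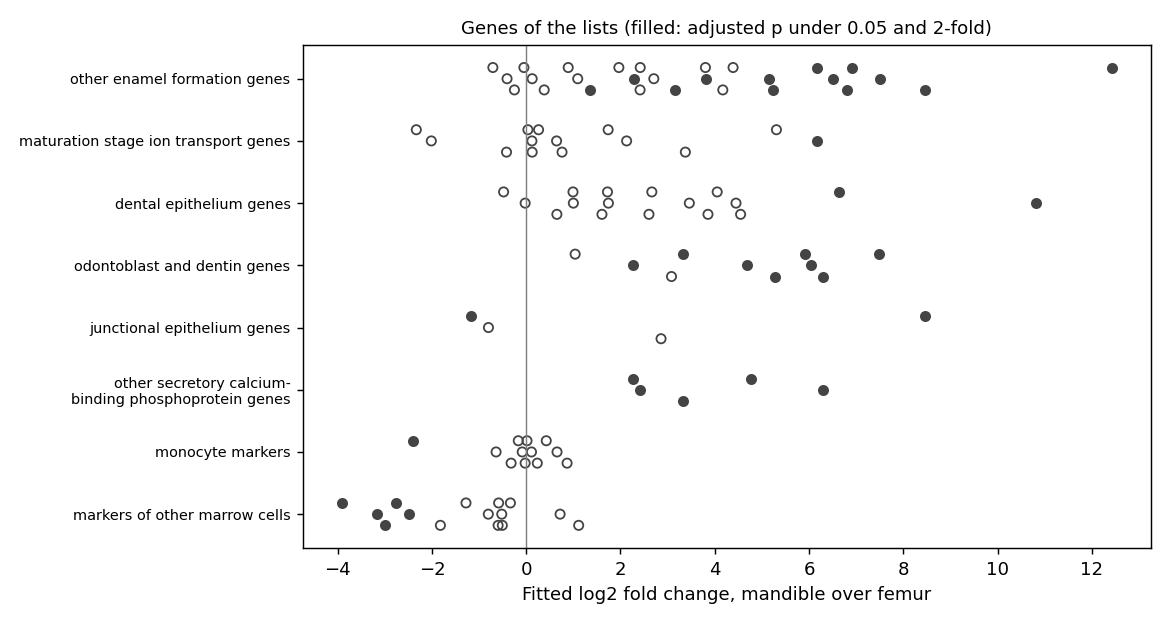
Fitted log2 fold change, mandible over femur, of every tested gene on 8 lists, where filled points are genes called by edgeR (BH-adjusted p under 0.05, at least 2-fold). Called genes lie to the right among enamel formation genes, odontoblast genes and genes listed with the SCPP family, and the monocyte markers, median -0.0024, lie around 0. Dmp1, Dspp and Ibsp are drawn on both the odontoblast and the SCPP list.

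Markers of the cells that the column should keep or remove were compared last. Of the 12 monocyte markers none was called higher and 1 was called lower, against 3.88% and 1.3% of all tested genes (1 higher and 1 lower at an unadjusted p under 0.05, 0 and 1 by DESeq2). Ccr2, the receptor that marks classical monocytes, was 668 ± 261 CPM in the mandible and 660.2 ± 217 CPM in the femur (SD, n = 3). Of 15 markers of other marrow cells none was called higher and 5 were called lower (0 and 6 at an unadjusted p under 0.05, 0 and 4 by DESeq2), with a median of -0.80. They summed to 2588 to 4325 CPM in the mandible, 2616 CPM in femur S15 and 12243 to 14516 CPM in the other femur libraries.

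The genes with the profile most like the summed counts of the 8 members were sought among 9465 genes with at least 10 CPM on average in the mandible. By Pearson correlation of log2 CPM over the 6 libraries they were Prss35, Tnn, Sfrp2, Cd248 and Dpysl3, with r from 0.999 to 0.996. The 6 points form 2 groups, so that r describes mainly the gap between the skeletal sites. Prss35, a secreted protein related to serine proteases, was 39.2, 56.4 and 87.6 CPM in S16, S19 and S23 and had at most 1 count in a femur library. Tnn, a tenascin of mineralized tissues, was 253, 316 and 276 CPM in the mandible and 0.552, 2.07 and 0.707 CPM in S13, S15 and S18. Among the members themselves r with the sum ran from 0.999 for Ambn to 0.865 for Odaph.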

How the data were processed

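RNA of 6 monocyte libraries was analysed. The authors trimmed paired-end reads, mapped them with Hisat2 (HISAT2 2.1.0 in the submitters' processing notes) and used featureCounts to count them. The deposited table holds these counts per gene, whole and not normalized. The methods name GRCm38, but the interval in the table lay inside the GENCODE M21 gene for 2979 of 52029 shared genes and 1 of the 8 members, so the positions given are those of M21, matched on the Ensembl identifier. Strand use is not given in the sources used here.

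Differences were fitted by edgeR 4.0.16 under R 4.3.3 (filterByExpr, minimum count 10 and minimum total 15, TMM, quasi-likelihood, prior count 0.125) and DESeq2 1.42.0 as an alternative, without covariates. A call needed p under 0.05 after Benjamini-Hochberg adjustment and at least a 2-fold difference. The test was tried on simulated data. Exonic lengths were those of the count table. Promoters came from RefSeq (GRCm38.p6), in which all 8 members matched. Members and lists were chosen with earlier results of these data known. Named genes were the members, their neighbours, up to 3 called genes with the largest change and the 3 most abundant genes of each list, the 5 most alike genes, and Xist. Not every gene that meets this rule is named. Protein sequences were not used here. Of the list genes, Fdcsp was not matched to a name in the table. A further list gene is not reported here by name.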

Additional observations from a re-analysis of the deposited data

How the results depend on the processing

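The number of genes called over the whole table was 938, and 1548 with DESeq2 and 1590 with all genes that had a count. Leaving out 1 library gave 434 (without mandible S19) to 1565 (without femur S15), with 551 without mandible S23, 509 without femur S13 and 552 without femur S18. Genes called higher on the dental epithelium list were 2, and 7 with DESeq2 and 5 with all genes that had a count, and 2 to 5 over the fits without 1 library, the most without S15. On the maturation ion transport list the number was 1, and 2 with DESeq2 and 2 with all genes that had a count, and 0 (without S19) to 3 (without S15). It was 10 to 15 for the enamel formation list, 7 to 8 for odontoblasts, 1 to 2 for junctional epithelium (2 without S15) and 3 to 5 for the other genes listed with the SCPP family (3 without S19). Under the RLE, unnormalized and mean CPM of at least 1 settings, none of these counts moved by over 1.5 times. The secretory share was 99.1% without Amelx, instead of 99.6%, and 99.5 to 99.6% without 1 mandible library. The share of library counts in the 8 genes was 0.657% without S23 and 1.01% without S16, and its mean over the 3 mandible libraries was 0.858%.

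The sign of 3 uncalled genes turned. Leaving out 1 library, Stim1 ran from -0.11 to 0.31, Atp2b4 from -0.082 to 0.30 and Atp6v0a2 from -0.15 to 0.21, the highest each time without S13. Stim1 was -0.11 without S15, Atp2b4 -0.082 without S16 and -0.082 without S18, and Atp6v0a2 -0.0097 with every gene with a count, -0.0079 at a mean CPM of at least 1, -0.15 without S23, -0.095 without S15 and -0.029 without S18, all as log2 fold changes. The causes were not tested, beyond the fewer samples or other genes in each fit. The lowest log2 fold change of a member over the fits without 1 library was 1.97 for Odaph (without S23), and all 8 stayed above 0 in each of them. With 3 libraries a group and few counts of Klk4 and Odaph, depth limits what can be said of these genes in the femur. No paired analysis was possible because the groups share no replicate numbers in the labels.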
